A study of Mus musculus with 4 samples.

Results

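The genes described here encode RNA splicing factors and heterogeneous nuclear ribonucleoproteins (hnRNPs). They are all genes whose symbol begins with Srsf, Hnrnp, Snrp, Sf3a, Sf3b, U2af or Prpf, taken from probe sets annotated to 1 gene symbol. The rule gave 59 probe sets for 44 genes, of 6137 genes named on the arrays. There were 8 SR protein genes, 14 hnRNP genes and 22 genes of the small nuclear ribonucleoproteins (snRNPs) and their associated factors. Of the probe sets, 48 were on array type A and 11 on array type B. Only Srsf1 and Srsf6 were on both types, while 34 genes were on A alone and 8 on B alone.

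Peritoneal exudate cells were taken from C/EBPε-deficient (-/-) and wild type (+/+) mice of a mixed 129/SvEv x NIH Black Swiss background. C/EBPε, encoded by Cebpe, is a transcription factor of late granulocyte maturation, and the study sought genes it may control in neutrophils and macrophages. In each genotype, 4 mice aged 6 to 8 weeks had received 2 ml of 4% thioglycollate broth, a sterile irritant, into the peritoneal cavity 24 h before lavage. Total RNA was hybridised to 1 array of type A and 1 of type B per genotype, 4 arrays in all. The labels break off where they begin to say how cells were combined, and on B the deficient genotype is named in the sample title alone.

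Every difference below therefore sets 1 array against 1 array and has no replicate check, no test and no p-value. A ratio is the log2 ratio of the deficient over the wild-type array, given only where both arrays were above a floor, the median signal of the array type (1036.5 on A and 690.2 on B). Where only 1 of the arrays was above the floor, the difference is given as a bound, computed against the floor. For genes with more than 1 measured probe set, the brightest relative to its floor was used. Over 424 genes with repeat measured probe sets, some of which share probes, the log2 ratio had a measurement error of 0.38 (pooled SD). It holds no spread between mice, nor any change that moved all probe sets of a gene alike, while differences between the probes of a gene are in it. That error was 0.46 for probe sets below 3 times the floor and 0.34 above. The trimmed means of the arrays were nearly equal, with scaling factors from 0.999 to 1.001. Array medians were 1015 in deficient and 1058 in wild-type cells on A, and 731 in deficient and 647.5 in wild-type cells on B. The median log2 ratio of all measured probe sets was 0.02 on both A and B.

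Per the labels, stained cytospins of either genotype showed about 60% neutrophils and 30% monocytes, the rest lymphocytes (7 to 10%). In the arrays, 11 of 14 neutrophil markers and 13 of 14 monocyte and macrophage markers with a probe set were measured, and 0 of 7 T and NK cell markers. In deficient cells, 9 of the 11 neutrophil markers and 7 of the 13 macrophage markers had ratios below 0, with medians of -0.52 and -0.43. The summed intensity of the measured neutrophil markers was 205592 in deficient and 265427 in wild-type cells, and that of the macrophage markers was 479805 in deficient and 490241 in wild-type cells. The neutrophil markers Camp, Cxcr2 and Ltf and the macrophage marker Fcgr1 were at or below the floor in deficient cells, wild-type cells or both. They are therefore in neither these medians nor these sums. Medians were 0.07 for 6 measured B cell markers, -0.58 for 3 of eosinophils and mast cells and -1.51 for 3 of mesothelium and fibroblasts. Of 11 measured cell cycle genes, 10 were below 0 (median -1.03), with a summed intensity of 21877 in deficient and 44832 in wild-type cells. The part of these marker and cell cycle differences in the values below was not tested. In such a mixture, fewer cells of a type and less RNA per cell cannot be told apart. Array signals of beta-actin at its 3′ over its 5′ end, a measure of RNA integrity, were 0.88 in deficient and 0.89 in wild-type cells on A, and 0.88 in deficient and 0.82 in wild-type cells on B. Cebpe itself was not analysed here, so the deletion was not checked in these values.

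Splicing removes introns from pre-mRNA in the spliceosome, which assembles on each intron from the U1, U2, U4, U5 and U6 snRNPs. SR proteins, which carry arginine-serine repeats, bind exonic enhancers and recruit the U1 snRNP and U2AF to splice sites. The hnRNPs coat nascent transcripts, often oppose SR proteins at exons, and also act in mRNA export, translation and decay. In activated myeloid cells, splicing and hnRNP-dependent decay are known to shape the output of cytokine transcripts.

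Splicing genes as a whole differed little between the genotypes. Of the 44 genes, 35 were measured in both genotypes, where 51.0% of all named genes were. A further 2 had only a bound, 0 of them past 2-fold (beside 19.0% of all bounds), and 7 were at or below the floor in both. The median log2 ratio of the 35 was -0.09, with 21 below 0 and 14 above, beside 0.01 for all 3132 measured genes, of which 49.0% were below 0. The gene of the U5 protein Prpf8 was 2.22-fold higher in deficient cells, and that of the U2AF large subunit, U2af2, was 2.28-fold lower. They were the 2 of 35 genes past 2-fold, beside 6.64% of all measured genes, so the share is near the background. By probe set, 1 of 36 measured on A was higher by 2-fold and 0 lower, where 2.54% of all were higher and 3.15% lower. On B, 0 of 9 were higher and 1 lower, where 4.23% of all were higher and 3.76% lower. Past 1.5-fold there were 7 of 35 genes (20.0%), beside 23.0% of all measured genes. Ratios within the measurement error of 0 were found for 21 genes (60.0%), beside 58.0% of all.

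**Figure D1:**
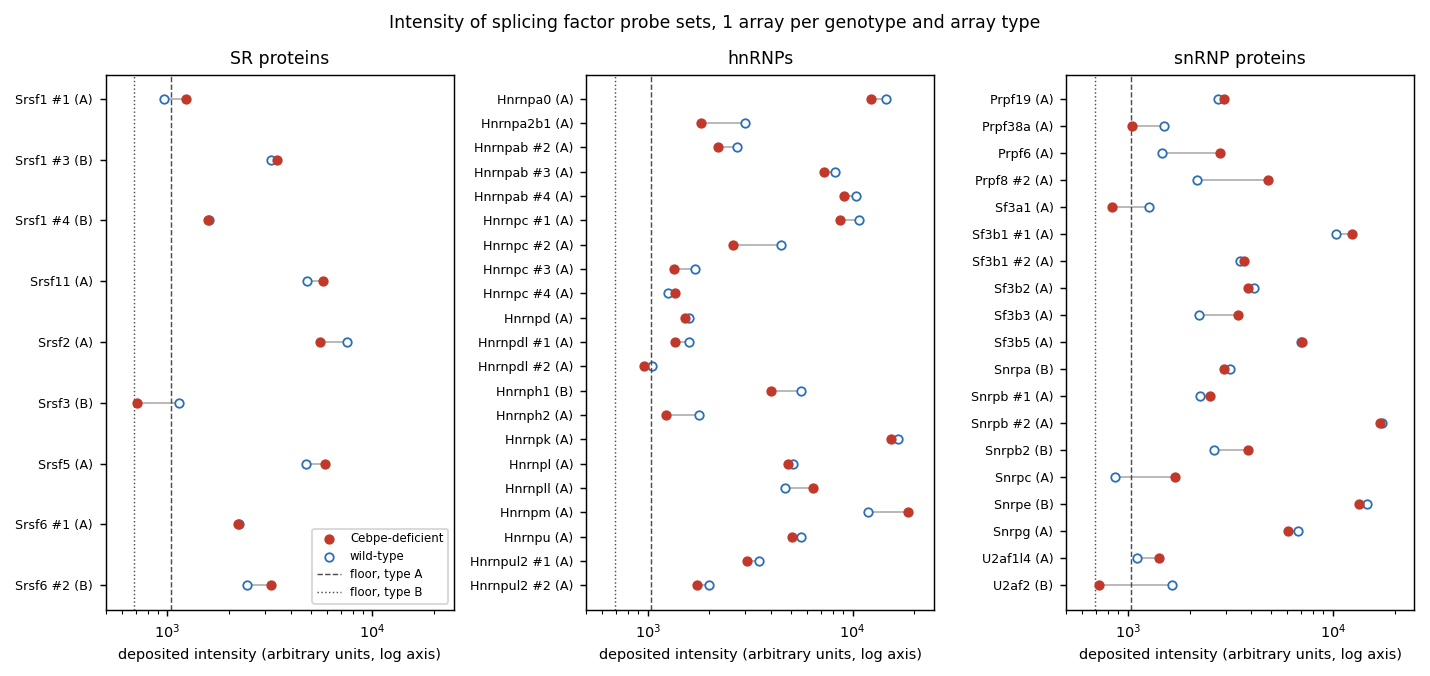
Deposited intensity (horizontal log axis, arbitrary units) of the 49 splicing probe sets above the floor on at least 1 array, with 1 row per probe set and the array type in brackets; # numbers the probe sets of a gene. Filled points are Cebpe-deficient cells, open points are wild-type cells, and vertical lines are the floors of types A (1036.5) and B (690.2). Points of most rows nearly coincide, while Prpf8, Prpf6 and U2af2 are among the widest apart.

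The hnRNP genes were the group that most shared a direction. All 14 were measured in both genotypes, and 12 had ratios below 0, that is, slightly lower signal in deficient cells (85.7%, beside 49.0% of all measured genes). Their median log2 ratio was -0.20, and the interquartile range lay between -0.28 and -0.09, within the measurement error of a single ratio. The full range was from -0.71 to 0.64, and 0 of the 14 reached 2-fold. Counted by probe set on array type A, 16 of 19 measured hnRNP probe sets were below 0, beside 48.2% of all probe sets on A. The single hnRNP probe set on B was also below 0. With the arrays scaled to the bacterial controls instead, 7 of the 14 genes were below 0, where the median of all measured genes was 0.24. Some of the 14 were read by probe sets shared within a gene family (suffix f). Without the suffixes f, g, r and i, left out after the data were seen, 9 of 12 measured genes were below 0. Without any suffixed probe set, 4 of 6 were.

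Hnrnpa2b1, which packages nascent transcripts and sorts mRNAs, was lowest, with an intensity of 1828 in deficient cells, against 2982 in wild-type cells (log2 ratio -0.71, 1.63-fold lower). Its only probe set was at 2.32 times the floor, and a floor at the 70th percentile left it a bound of -0.22. Hnrnph2 read 1231 in deficient and 1783 in wild-type cells (-0.54). Hnrnph1, measured on B, read 4017 in deficient and 5575 in wild-type cells (-0.48). Both hnRNP H proteins bind runs of G beside exons, and both ratios lay just beyond the measurement error, Hnrnph2 from a dim probe set at 1.45 times the floor.

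Hnrnpc, which binds uridine tracts and keeps cryptic exons out of mRNA, had 4 measured probe sets that spread over 0.89 log2 units. They read 8711, 2603, 1345 and 1355 in deficient cells, against 10684, 4479, 1704 and 1262 in wild-type cells, giving log2 ratios of -0.30, -0.78, -0.34 and 0.10. The deficient reading was thus the lower one for 3 of the 4, each of a type shared within a gene family, and the probe set without a suffix was level. Hnrnpab, an hnRNP that binds AU-rich RNA, was far more even. Its 3 measured probe sets gave -0.31, -0.19 and -0.19, and the fourth was below the floor in both genotypes. For Hnrnpul2, a relative of hnRNP U, the probe sets gave -0.21 and -0.20. In both genes 1 of the measured probe sets has the suffix g, which marks probes in common with another probe set. These agreements therefore do not rest on separate probes alone.

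For 6 further genes the ratio lay within the measurement error. Hnrnpk, a poly-C binder, read 15378 in deficient and 16668 in wild-type cells (-0.12). Hnrnpa0, which binds AU-rich elements of cytokine mRNAs in macrophages, read 12352 in deficient and 14617 in wild-type cells (-0.24). Hnrnpu, a nuclear scaffold protein, stood at -0.15, and Hnrnpl, which binds CA repeats, at -0.09. From dimmer probe sets, Hnrnpd, known as AUF1 and a decay factor of inflammatory mRNAs, read 1517 in deficient and 1584 in wild-type cells (-0.06), and its relative Hnrnpdl stood at -0.22.

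Hnrnpm and Hnrnpll went the other way. Hnrnpm, a splicing regulator that in mouse macrophages is known to hold back Il6 pre-mRNA processing, read 18606 in deficient cells, against 11896 in wild-type cells (0.64, 1.56-fold higher). Hnrnpll, known for the switch of CD45 isoforms in lymphocytes, read 6374 in deficient and 4672 in wild-type cells (0.45). Each rested on 1 probe set, at 14.71 and 5.33 times the floor, so neither was dim.

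Promoter sequences are shown for the lowest and the highest hnRNP gene, since the knocked-out factor binds DNA. They are the 250 bases before the transcription start in RefSeq on build GRCm38.p6, 5′ to 3′ on the gene's strand, with capitals marking matches to 2 C/EBP motifs or to the E-box CACGTG. The Hnrnpa2b1 window lies at chr6:51469895-51470144 on the minus strand and that of Hnrnpm at chr17:33685459-33685708 on the minus strand.
Hnrnpa2b1: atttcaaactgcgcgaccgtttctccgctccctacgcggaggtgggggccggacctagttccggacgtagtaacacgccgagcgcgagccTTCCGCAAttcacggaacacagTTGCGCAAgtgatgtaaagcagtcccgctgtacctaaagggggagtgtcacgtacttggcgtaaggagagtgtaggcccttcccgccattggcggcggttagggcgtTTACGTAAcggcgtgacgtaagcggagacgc
Hnrnpm: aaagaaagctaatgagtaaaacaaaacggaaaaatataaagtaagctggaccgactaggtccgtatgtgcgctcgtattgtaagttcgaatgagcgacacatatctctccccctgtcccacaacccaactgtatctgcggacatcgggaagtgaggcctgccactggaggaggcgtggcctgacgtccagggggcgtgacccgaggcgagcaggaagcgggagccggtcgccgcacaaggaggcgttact
The full C/EBP palindrome TTGCGCAA began 138 bases before the Hnrnpa2b1 start. The looser motif TTNNGNAA, which also matches that palindrome, was found there 3 times on either strand, and no capitals stand in the Hnrnpm window. Of all 32851 promoters in the table, 0.164% held the palindrome, 36.8% the loose motif and 6.02% the E-box. For the splicing genes, 39 of 44 had a promoter in the table, 53 windows in all. Of these windows 2, both of Hnrnpa2b1, held the palindrome, 47.2% the loose motif and 7.55% the E-box. The motifs were chosen with the ratios known, and a match describes the letters and not a bound site.

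**Figure D2:**
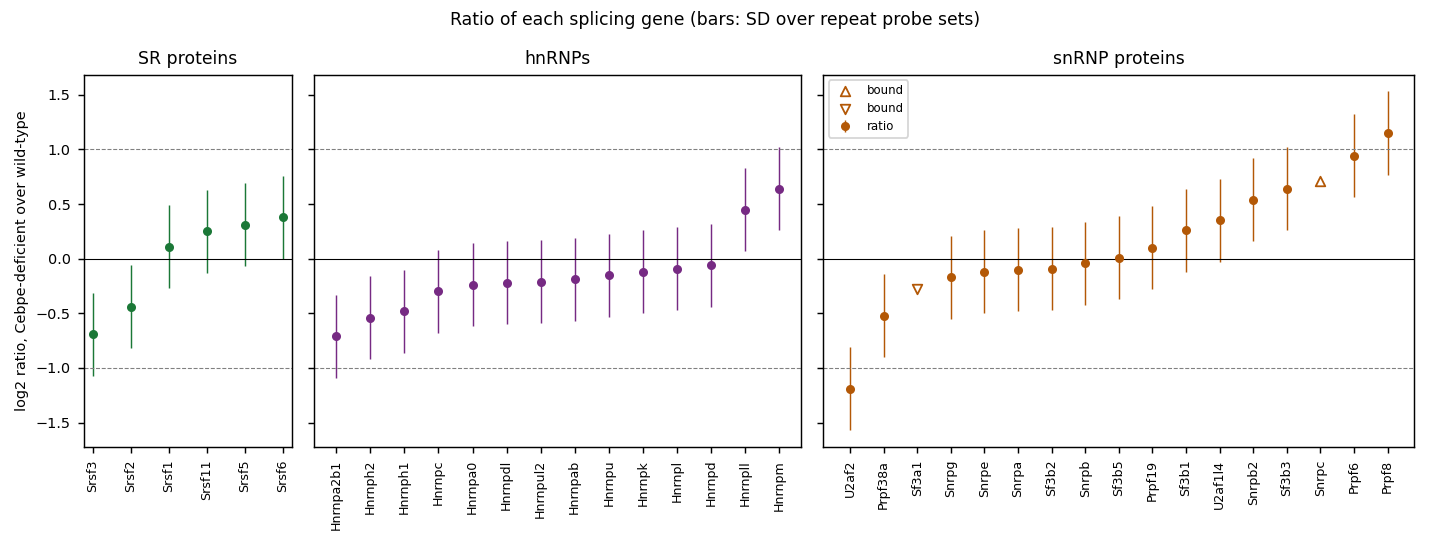
Log2 ratio, Cebpe-deficient over wild-type (vertical axis), of the 35 measured splicing genes and 2 genes with a bound (open triangles), in 3 panels and ordered by ratio. Bars are the SD over repeat probe sets (0.38) and dashed lines mark 2-fold; 12 of 14 hnRNP genes lie below 0, and Prpf8 and U2af2 lie beyond the dashed lines.

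SR protein genes showed no common direction. Of 8 genes, 6 were measured, 4 above 0 and 2 below, with a median log2 ratio of 0.18. They ranged from -0.69 to 0.38 and none reached 2-fold. Those above 0 were Srsf6, Srsf5, Srsf11 and Srsf1, and each lay near or within the measurement error.

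Srsf3, the smallest SR protein, with added roles in mRNA export and 3′ end formation, was lowest. It read 707 in deficient cells, against 1138 in wild-type cells (log2 ratio -0.69, 1.61-fold lower). The deficient value was barely over the floor of 690.2, and under equal-median or quantile scaling it was under it, giving a bound of -0.81 in place of the ratio. Srsf2, also called SC35, which marks nuclear speckles and binds exonic enhancers, read 5567 in deficient and 7534 in wild-type cells (-0.44) from a brighter probe set.

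Srsf5 read 5867 in deficient and 4717 in wild-type cells (0.31), and Srsf11 read 5711 in deficient and 4816 in wild-type cells (0.25). Both are SR family splicing factors, and in both the higher reading was that of deficient cells. Srsf6 gave 0.38 on B, with 3198 in deficient and 2446 in wild-type cells, and -0.03 on A, with 2204 in deficient and 2243 in wild-type cells. The array types thus differed by 0.41 for the same gene, about the size of the measurement error. Srsf1, the founding SR protein that activates 5′ splice sites, read 3435 in deficient and 3184 in wild-type cells by its brightest probe set (0.11), and -0.02 by another on B. On A, its probe sets were above the floor in deficient cells only (1228, against 959 in wild-type cells) or in neither. Srsf4 and Srsf10 were at or below the floor in both genotypes and have no ratio.

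Among snRNP genes the ratios were centred on 0 with a wider spread. Of 22 genes, 15 were measured, 8 above 0 and 7 below, with a median of 0.01 and a range from -1.19 to 1.15. The ratios beyond 1.5-fold belonged to Prpf8, Prpf6 and Sf3b3 on the higher side and U2af2 on the lower side. That is 4 of 15 genes (26.7%), beside 23.0% of all measured genes.

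The Sm proteins form the ring that holds each spliceosomal snRNA, and their genes were level. Snrpb read 17008 in deficient and 17421 in wild-type cells (-0.04), and 0.17 by a dimmer family probe set. Snrpe, by a family probe set alone, read 13457 in deficient and 14645 in wild-type cells (-0.12). Snrpg read 6022 in deficient and 6791 in wild-type cells (-0.17). The 3 measured Sm genes thus lay within 0.17 of 0. Snrpn, the Sm gene of neurons, was at or below the floor in both genotypes. Of the U1 genes, Snrpa stood at -0.10, again by a family probe set alone. Snrpc exceeded the floor only in deficient cells (1692, against 866 in wild-type cells), at least 1.63-fold higher.

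The U2 snRNP and U2AF recognise the branch site and the 3′ splice site, and their genes went both ways. Of 9, 7 were measured, 5 above 0 and 2 below. Sf3b1, the branch site subunit that contacts the intron, read 12373 in deficient and 10352 in wild-type cells (0.26), and 0.06 by its second probe set. Sf3b3 read 3459 in deficient and 2222 in wild-type cells (0.64, 1.56-fold higher). Snrpb2, the U2 snRNA binder, read 3853 in deficient and 2638 in wild-type cells (0.54). Sf3b5 and Sf3b2, of the same SF3b complex, were level at 0.01 and -0.09, so its 4 measured subunits ranged from -0.09 to 0.64. Sf3b2 rested on a family probe set alone.

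U2af2, which binds the polypyrimidine tract ahead of the 3′ splice site, was the lowest of all 35 genes. It read 720 in deficient cells, against 1641 in wild-type cells (-1.19, 2.28-fold lower). Its deficient value lay just over the floor of 690.2. Equal medians and quantile scaling left it a bound, of -1.34 and -1.32. Scaling to the bacterial controls brought the ratio to -0.84, under 2-fold, and a floor at the 70th percentile left it no ratio. U2af1l4, which encodes a small-subunit relative that pairs with it, read 1416 in deficient and 1111 in wild-type cells (0.35). Sf3a1, of the U2 snRNP, read 841 in deficient cells, under the floor, against 1262 in wild-type cells, at least 1.22-fold lower, and Snrpa1 was at or below the floor in both.

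The PRP factors build and remodel the active spliceosome, and 3 of their 4 measured genes were above 0. Prpf8, the U5 protein at the catalytic centre, read 4836 in deficient cells, against 2177 in wild-type cells (1.15, 2.22-fold higher). That value came from a probe set with the suffix g, which in the array's naming marks probes in common with another probe set. Its companion from the same transcript read 877 in deficient and 570 in wild-type cells, below the floor in both. Left without suffixed probe sets, Prpf8 had no ratio, and a floor at the 70th percentile turned it into a bound of 0.92. Prpf6, which bridges U5 with U4/U6, read 2811 in deficient and 1461 in wild-type cells (0.94, 1.92-fold higher), with a bound of 0.13 at that higher floor. Under bacterial-control scaling Prpf6 stood at 1.15, past 2-fold.

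Prpf19, a ubiquitin ligase of the activated spliceosome, was level, with 2955 in deficient and 2761 in wild-type cells (0.10). Prpf38a, a factor of spliceosome activation, read 1043 in deficient and 1499 in wild-type cells (-0.52), with the deficient value at the floor. Prpf39, Prpf38b and Prpf4b were at or below the floor in both genotypes. The Prpf8 promoter is shown as that of the highest splicing gene, from the same RefSeq table, at chr11:75486527-75486776 on the plus strand, with capitals as above.
Prpf8: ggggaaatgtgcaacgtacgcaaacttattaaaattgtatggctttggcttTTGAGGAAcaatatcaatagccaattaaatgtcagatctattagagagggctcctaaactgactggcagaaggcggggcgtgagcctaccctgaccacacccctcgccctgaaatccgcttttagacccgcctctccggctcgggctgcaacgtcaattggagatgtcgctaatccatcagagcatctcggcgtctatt
It held 1 match to the loose motif TTNNGNAA, 199 bases before the start, a motif present in 36.8% of all promoters.

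**Figure D3:**
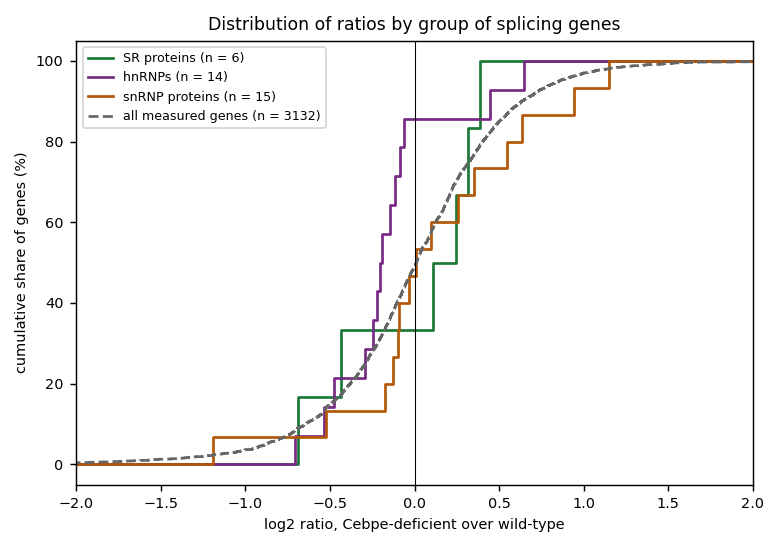
Cumulative share of genes (vertical axis, %) against the log2 ratio, Cebpe-deficient over wild-type (horizontal axis), for SR protein (n = 6), hnRNP (n = 14) and snRNP (n = 15) genes and for all 3132 measured genes (dashed). The hnRNP curve climbs to 85.7% before 0, where the dashed curve is at 49.0%, and the other curves cross 0 at 33.3% and 46.7%.

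A list of other splicing regulators, helicases, kinases, Lsm proteins and cap-binding factors was read beyond these families. Of its genes, 62 had a named probe set, and 42 were measured. Their median log2 ratio was 0.05, with 22 above 0 and 20 below. Of these, 1 passed 2-fold, Ncbp2, the small subunit of the nuclear cap-binding complex, which read 1427 in deficient cells, against 2949 in wild-type cells (-1.05, 2.07-fold lower). Scaling to the bacterial controls put Ncbp2 at -0.70, under 2-fold, and a floor at the 70th percentile left it a bound of -0.53. Lsm2, a ring protein of U6 snRNA and of mRNA decay, was 1.86-fold lower (1261 in deficient, 2343 in wild-type cells), and the splicing regulator Rbfox2 was 1.65-fold lower. At the other end Crnkl1, a component of the activated spliceosome, stood at 0.72, the cold-inducible RNA-binding gene Cirbp at 0.70 and the SR-related coactivator Srrm1 at 0.67. Lsm2, Rbfox2, Crnkl1 and Cirbp were dim, at 1.74, 1.43, 1.39 and 1.86 times the floor. A floor at the 70th percentile left none of them a ratio or bound, and bacterial-control scaling left Crnkl1 a bound. With the floor at the 30th percentile Srrm1 was read by another probe set and stood at 1.36, past 2-fold, and at the 70th percentile it had a bound of 0.55. The share past 1.5-fold was 21.4%, beside 23.0% of all measured genes.

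Genes of the U5 snRNP, looked at after their values were seen, did not share a direction. Beside the higher Prpf8 and Prpf6, its GTPase gene Eftud2 read 3458 in deficient and 5528 in wild-type cells (-0.68), and Snrnp40 stood at -0.25. Txnl4a, another U5 protein, was above the floor in deficient cells only (1471, against 144 in wild-type cells), at least 1.42-fold higher. Snrnp70, which binds U1 snRNA, read 1125 in deficient and 1834 in wild-type cells (-0.71).

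The order of the 3 groups, hnRNPs lowest and SR proteins highest, was the same under each scaling and floor tried. With probe sets in place of genes, however, the SR protein median (0.04) was not above the snRNP median (0.06), and without suffixed probe sets it was 0.11 from 1 gene, beside 0.94 for 1 snRNP gene. Relative to the median of all measured probe sets of the array type, the hnRNP median was -0.22, and it ranged from -0.22 to -0.20 over 5 other scalings and 2 other floors. That of the SR proteins ranged from 0.13 to 0.23 and that of the snRNP genes from -0.06 to 0.04. No scaling, equal medians and bacterial controls each apply 1 factor per array, which the subtraction removes. Other floors leave the ratio of a probe set as it is and only change which ones are measured. For these settings the narrow ranges and the steady order thus largely follow from the calculation and are no check on the ratios. Without this subtraction, scaling to the bacterial controls put the median of all measured probe sets at 0.21 on A and 0.36 on B, against 0.02 on both as reported, and the hnRNP median at 0.01.

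**Figure D4:**
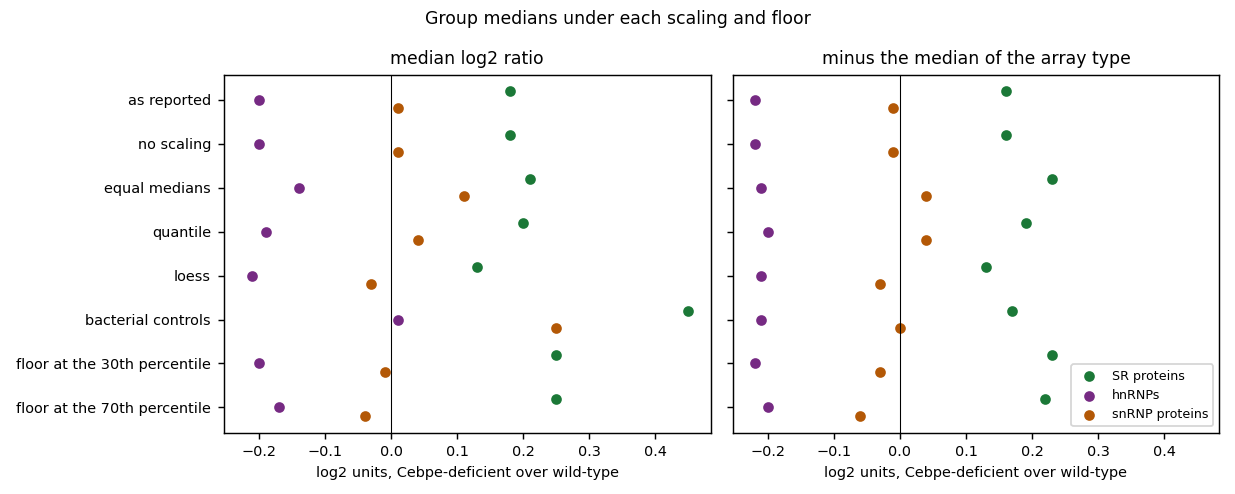
Median log2 ratio, Cebpe-deficient over wild-type (horizontal axis), of the 3 groups of splicing genes under each scaling and floor (rows), as such (left) and after subtracting the median of all measured probe sets of the array type (right). In the right panel the hnRNP points lie between -0.22 and -0.20 in each row, left of the snRNP and SR protein points. The subtraction removes any factor common to a whole array, so several rows could hardly differ.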

How the data were processed

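Total RNA of peritoneal exudate cells was measured on 4 one-colour arrays, 1 per genotype on each of 2 array types with different probe sets. The authors deposited whole-number intensities on a linear scale, 20.6% to 29.3% of them below 0, per the values. How the scanner output was turned into these values (software, background, scaling) is not given in the sources used here. Of 13069 probe sets besides controls, 7542 had 1 gene symbol in the platform annotation, 224 several and 5303 none; those with several or none were counted but not named. All 44 splicing genes matched the RefSeq table of GRCm38.p6 by gene ID and symbol.

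Arrays of a type were scaled to a common mean after leaving out the top and bottom 2% of probe sets. Intensities are printed as deposited, and log2 ratios come from the scaled values. The floor, ratio, bound and repeat probe set error are defined in the text. Each genotype had 1 array per type, so no test could be run, and the number of arrays limits the precision. Array types were compared with each other for a level only in choosing a gene's brightest probe set relative to its floor, as for Srsf1 and Srsf6.

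Genes were named by rule: past 2-fold, the 3 highest and 3 lowest ratios of each group, and members whose probe sets differ by over 1 log2 unit (0 genes). Other members are given in passing, outside that rule. The members, lists and motifs were chosen with earlier results of these data known. The steps were tested on simulated data, with folds planted only in probe sets brighter than those of U2af2 and Prpf8 (1.71 and 3.38 times the floor). Dim probe sets were thus not covered. Alternatives were other scalings (none, equal medians, quantile, loess with span 0.3, bacterial controls), floors, folds, probe set selections and 1 array type at a time. Python 3.11.15, numpy 2.4.6, pandas 2.3.3, statsmodels 0.14.6 and matplotlib 3.10.9 were used.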

Additional observations from a re-analysis of the deposited data

How the results depend on the processing

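No paired analysis was possible because each genotype had 1 array of each type, and for the same reason no replicate could be left out. Group medians moved by less than a yardstick in 49 of 56 recalculations. That yardstick was the measurement error scaled down by the number of genes, although genes of 1 array pair are not replicates. The log2 values of named genes moved by less than the measurement error, with ratio or bound unchanged, in 147 of 159. Genes at or below the 70th-percentile floor in both genotypes had no value there: Hnrnpd, Hnrnph2, Prpf38a, Srsf3, U2af2, Cirbp, Crnkl1, Lsm2 and Rbfox2. Their loss of a value at that floor is not counted among the 159, while their values under the other settings are. Without scaling hardly any value could move, as the factors were 0.999 to 1.001. The exceptions for medians were bacterial-control scaling, with 0.14 for all splicing genes, 0.45 for SR proteins, 0.01 for hnRNPs and 0.25 for snRNP genes, where the median of all measured genes was 0.24. Array type B alone gave -0.48 for 1 hnRNP gene and -0.11 for 4 snRNP genes. Without any suffixed probe set 1 snRNP gene, Prpf6, stood at 0.94. Genes below 0 numbered 11 of 35 (7 of 14 hnRNPs) under bacterial controls, 4 of 8 (4 of 6) without suffixed probe sets and 5 of 8 (1 of 1) on B alone, the smaller totals following from fewer genes measured. The counts past 2-fold, 1 higher and 1 lower by probe set and by gene alike, were unstable at this size. They were 2 higher and 0 lower with equal medians or bacterial controls, 0 lower with quantile scaling or on A alone, and 0 higher on B alone or without the suffixes f, g, r and i (an alternative chosen after seeing the data, as was recounting the genes below 0). Both were 0 at 3-fold, without suffixed probe sets and at the 70th-percentile floor. At 1.5-fold, 4 probe sets were higher and 4 lower, and 4 genes were higher and 3 lower. Bounds past the fold, 0 as reported, were 1 with equal medians, quantile scaling, the floor at the 30th percentile or 1.5-fold. Dim probe sets limit these ratios: 9 of 44 genes had no ratio at all. For the count changes other than those from fewer genes the cause was not tested.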
